A study of Mus musculus with 4 samples.

Results

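The squamous lineage transcription factors described here are 10 mouse genes that a fixed list of symbols names: Trp63, Sox2, Klf4, Klf5, Grhl2, Grhl3, Tfap2a, Tfap2c, Pitx1 and Ovol1. Their Ensembl identifiers were matched to symbols through GENCODE M21, and all 10 have 1 entry each among the 34721 entries of the expression table. RNA from 4 cultured oral cancer cell lines was sequenced with 1 library per line. The lines derive from tumors of C57BL/6 mice whose buccal mucosa was treated with the carcinogen DMBA (dimethylbenzanthracene). Every line thus shares that strain and that agent. AOC3 was made from an oral tumor and AOC3-LN from a metastatic lymph node of mouse 3. AOC11 and AOC11-LN were made in the same way from mouse 11. Per the study, the cells isolated first were grown as tumors in the flank of C57BL/6 mice. The final lines were taken from those flank tumors, after fibroblasts had been separated from the cells with a kit. The carcinogen was applied for longer in mouse 11 than in mouse 3. No treatment of the cultured cells and no normal epithelium was part of the expression data, and whether a line is 1 clone is not given in the sources used here. AOC3 and AOC3-LN are called the AOC3 lines below, and AOC11 and AOC11-LN the AOC11 lines. Each of these groups is 1 mouse, so a difference between them cannot be told apart from a difference between single animals or single lines.

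Stratified epithelia such as the oral lining are renewed by basal cells, which keep the transcription factor p63, the product of Trp63, and lose it as they move outwards and keratinize. Sox2 works beside p63 in basal cells of the oral cavity and esophagus, Klf5 is a factor of proliferating basal cells and Klf4 of differentiating layers, and Grainyhead-like factors switch on genes of cell junctions and of the epidermal barrier. AP-2 factors act early in surface ectoderm and in keratinocytes, Pitx1 patterns the oral region and the hindlimb, and Ovol1 brings proliferating precursors to a stop.

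Several of these genes have close paralogs, and the sequences below show the longest stretches of identical coding sequence in 2 pairs whose levels are set side by side. They matter because a read that matches both paralogs could be assigned to either gene. Each line gives the coding strand with its position in GRCm38, read from the GENCODE M21 models, and the capitals mark the bases that both genes share without a mismatch.
Grhl2, exon 2, chr15:37270715-37270760, plus strand: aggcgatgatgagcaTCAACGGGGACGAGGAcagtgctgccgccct
Grhl3, exon 2, chr4:135561194-135561239, minus strand: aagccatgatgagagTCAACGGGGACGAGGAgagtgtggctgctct
Klf4, exon 3, chr4:55530937-55530977, minus strand: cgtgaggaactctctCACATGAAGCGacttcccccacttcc
Klf5, exon 4, chr14:99313291-99313326, plus strand: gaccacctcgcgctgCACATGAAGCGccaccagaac
The longest identical run was 17 bases between Tfap2a and Tfap2c, 16 between Grhl2 and Grhl3, 14 between Trp63 and Trp53 and 11 between Klf4 and Klf5. All of these are shorter than the reads of 100 bases. Of all windows of 100 bases along the longest transcript, none was found in another annotated gene for Trp63, Sox2, Klf4, Klf5, Grhl3 or Tfap2c. The share was 0.516% for Grhl2, 2.81% for Pitx1, 3.42% for Tfap2a and 20.6% for Ovol1, in each case with a transcript annotated on the opposite strand. The library kit keeps strand, but whether the counting used it is not given in the sources used here, so Ovol1 is the least certain of the 10 values in this respect. Sox2 is a gene of 1 exon that lies inside the longer noncoding gene Sox2ot on the same strand.

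Levels are given in FPKM, fragment numbers corrected for transcript length and library depth, a scale on which genes of different length can be compared. From the steps between low values AOC3 was estimated to hold 33700000 fragments, AOC3-LN 28300000, AOC11 33900000 and AOC11-LN 32500000. Epithelial identity of the lines was checked with 10 markers, which summed to between 3094 and 3809 FPKM. Krt8, Krt18 and Epcam made up most of that sum in every line. Krt5, on the same list, was at 499 and 275 FPKM in the AOC3 lines and at 4.99 and 17.0 in the AOC11 lines. The other 9 markers were inside a 2-fold difference between the mice. Of 10 fibroblast markers, 8 stayed under 1 FPKM in all lines, and the list summed to 0.350 and 0.323 FPKM in the AOC3 lines and to 7.08 and 11.6 in the AOC11 lines, where Acta2 and Postn made up most of it. The 10 leukocyte markers summed to between 9.49 and 27.1 FPKM through Cd68 and Csf1r, with Adgre1, Cd3e and Ncr1 listed at 0 in every line, and the 6 endothelial markers to at most 0.481 FPKM. Csf1r was at 0.995 and 0.435 FPKM in the AOC3 lines and at 20.8 and 6.01 in the AOC11 lines. The part of these markers in the differences between the mice described below was not tested. Fewer cells of a type and less RNA per cell cannot be told apart in such bulk libraries. Differences are given on a log2(FPKM + 1) scale after quantile normalization, which understates the change of low genes. A gene was kept if it reached 1 FPKM in some line, and 9 of the 10 factors passed, Sox2 being the exception. A gene was counted when its log2 difference was above 1 or below -1, that is past 2-fold.

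The 10 factors differed widely in level. Klf5, Tfap2a and Grhl2 were the 3 that stood above 10 FPKM in all 4 lines. Klf4 and Ovol1 stayed above 1 FPKM in all 4 lines as well. Pitx1 was abundant in both AOC3 lines, and Tfap2c was above 4 FPKM in both AOC11 lines, each being far lower in the lines of the other mouse. Trp63, Grhl3 and Sox2 did not exceed 2.10 FPKM anywhere. The genes linked above to basal cells were not alike in level. Klf5 had the highest mean of the 10 over the 4 lines, whereas the means of Trp63 and Sox2 RNA were 1.18 and 0.0798 FPKM. In the AOC3 lines Trp63 was nonetheless above Ovol1, at 1.69 and 2.10 FPKM against 1.12 and 1.92.

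**Figure D1:**
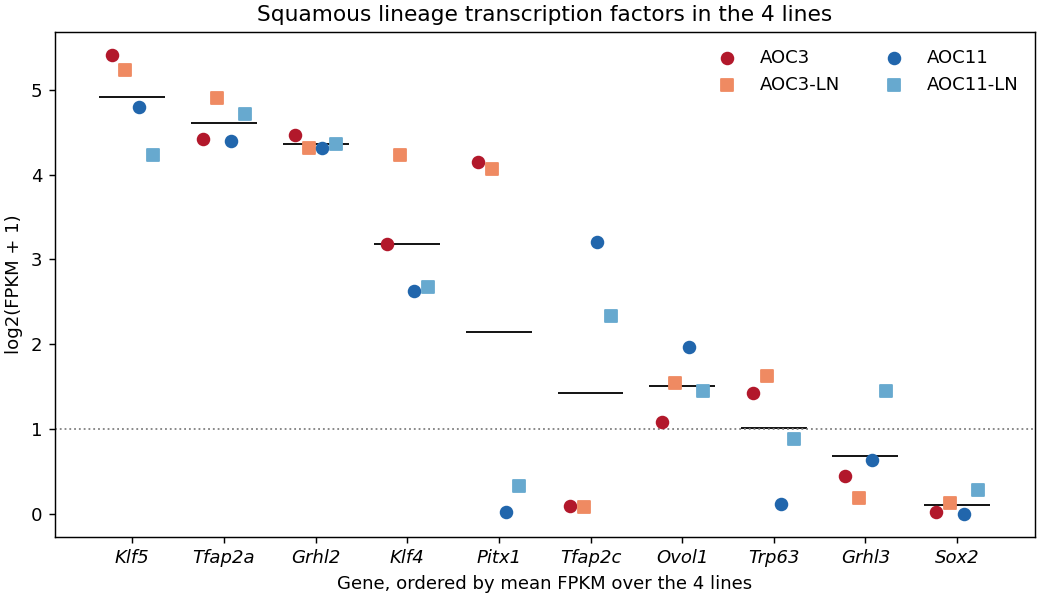
The level of each of the 10 genes in the 4 lines on a log2(FPKM + 1) axis, before quantile normalization, with genes ordered by their mean FPKM. Each point is 1 library, the black bar is the mean of the 4 points and the dotted line marks 1 FPKM. Klf5, Tfap2a and Grhl2 sit high in all lines, whereas Pitx1 is high only in the AOC3 lines and Tfap2c only in the AOC11 lines.

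Trp63, the master regulator of stratified epithelia (chromosome 16, 25683763 to 25892102, plus strand), was measured at 1.69 FPKM in AOC3 and 2.10 in AOC3-LN, against 0.0848 in AOC11 and 0.841 in AOC11-LN. Both AOC3 lines were above both AOC11 lines, and AOC11 was lower than its lymph node line, so that the highest and lowest values differed 24.7-fold. These levels placed the gene at percentiles of 16.5 and 21.6 among the 14165 genes kept in the AOC3 lines, and of 3.0 and 5.9 in the AOC11 lines. The values rest on about 300, 310, 14.9 and 140 fragments in the same order, if all are taken to come from the longest of its 8 transcripts. The table has 1 value per gene, so the long and the amino-terminally shortened forms of p63 were not told apart.

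Sox2 (chromosome 3, 34650405 to 34652461, plus strand) was listed at 0 in AOC11 and was at 0.211 FPKM in AOC11-LN, with 0.0157 in AOC3 and 0.0928 in AOC3-LN. With a single transcript of 2057 bases, the estimate was 1 fragment in AOC3, 5 in AOC3-LN, none in AOC11 and 13 in AOC11-LN. Sox2 did not pass the filter in any line, and no fold was computed from such counts. In each mouse the lymph node line had the higher value, at a level where few fragments decide the order. The exome variant list of the study names Sox2 in both AOC11 lines and in neither AOC3 line, and the variant itself was not analysed here.

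The Kruppel-like factors were both expressed throughout. Klf5, which has its gene on chromosome 14 (99298691 to 99315036, plus strand), reached 41.45 FPKM in AOC3 and 36.55 in AOC3-LN, against 26.8 in AOC11 and 17.8 in AOC11-LN, which made it the most abundant of the 10 by the mean, 30.65 ± 10.5 FPKM (SD, n = 4 lines). The AOC3 lines were above the AOC11 lines, with 2.33-fold between the highest and the lowest. Klf4 (chromosome 4, 55527143 to 55532466, minus strand) was at 8.09 FPKM in AOC3 and 17.7 in AOC3-LN, against 5.17 in AOC11 and 5.39 in AOC11-LN. AOC3-LN stood out from the other 3 lines, and the AOC11 lines were alike. Klf5 was above Klf4 in each of the 4 lines.

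Grhl2, the Grainyhead-like factor that maintains epithelial junctions (chromosome 15, 37233036 to 37363569, plus strand), varied least of the 10. It was measured at 21.1 FPKM in AOC3 and 18.8 in AOC3-LN, against 18.8 in AOC11 and 19.5 in AOC11-LN, a coefficient of variation of 5.51% and a 1.12-fold span. Grhl3, the member of the family that serves barrier formation and wound repair (chromosome 4, 135541888 to 135573630, minus strand), was at 0.361 FPKM in AOC3 and 0.134 in AOC3-LN, against 0.555 in AOC11 and 1.73 in AOC11-LN. It passed the filter through AOC11-LN alone, where it was highest. Both AOC11 lines were above both AOC3 lines. Grhl3 has a single transcript, and its values correspond to about 31.9, 10, 49 and 150 fragments, in the order AOC3, AOC3-LN, AOC11 and AOC11-LN.

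The AP-2 factors Tfap2a and Tfap2c differed in how they varied. Tfap2a (chromosome 13, 40715302 to 40738376, minus strand) was at 20.5 FPKM in AOC3 and 28.9 in AOC3-LN, against 20.1 in AOC11 and 25.3 in AOC11-LN. The groups overlapped, and the lymph node line was the higher in each mouse. Tfap2c (chromosome 2, 172549593 to 172558622, plus strand) was at 0.0661 FPKM in AOC3 and 0.0587 in AOC3-LN, against 8.20 in AOC11 and 4.05 in AOC11-LN. The groups did not overlap, and the highest value was 140-fold the lowest. The AOC3 lines held about 6.3 and 4.7 fragments of Tfap2c, so the denominator of that fold is small.

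Pitx1, a paired-like homeobox factor of the oral region (chromosome 13, 55825051 to 55836192, minus strand), showed the opposite distribution. It was at 16.7 FPKM in AOC3 and 15.7 in AOC3-LN, against 0.0130 in AOC11 and 0.255 in AOC11-LN. It stood at percentiles of 61.4 and 61.3 among all kept genes in the AOC3 lines, and of 2.3 and 2.6 in the AOC11 lines. About 1290 and 1020 fragments were behind the AOC3 values and about 1 and 19 behind the AOC11 values. Ovol1, a zinc finger repressor (chromosome 19, 5549136 to 5560646, minus strand), was at 1.12 FPKM in AOC3 and 1.92 in AOC3-LN, against 2.92 in AOC11 and 1.72 in AOC11-LN. Its groups overlapped, and the primary lines gave both the lowest and the highest value.

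Promoter windows were read for the 4 of the 10 genes that have an entry in the RefSeq promoter table (GRCm38.p6), which are Sox2, Klf4, Grhl3 and Tfap2a. The windows of Sox2 and Klf4 are shown because both are rich in CpG, while Klf4 was above 5 FPKM in every line and Sox2 was at or near 0. Each gives the 250 bases before the start of transcription on the strand of the gene, with motif matches in capitals (ACAAAG, the reverse complement of the Sox motif, in Sox2 and the AP-2 motif in Klf4).
Sox2, chr3:34649745-34649994, plus strand: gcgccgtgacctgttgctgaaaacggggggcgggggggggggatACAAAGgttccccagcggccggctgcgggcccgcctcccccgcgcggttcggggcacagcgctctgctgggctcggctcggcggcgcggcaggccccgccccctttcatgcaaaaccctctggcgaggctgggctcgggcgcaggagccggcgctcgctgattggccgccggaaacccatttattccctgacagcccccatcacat
Klf4, chr4:55532476-55532725, minus strand: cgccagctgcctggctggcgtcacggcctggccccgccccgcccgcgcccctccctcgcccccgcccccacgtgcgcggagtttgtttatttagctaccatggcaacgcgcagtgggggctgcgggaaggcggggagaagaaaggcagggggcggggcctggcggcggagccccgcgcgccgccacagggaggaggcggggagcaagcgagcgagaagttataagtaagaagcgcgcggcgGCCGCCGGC
Sox2 had 27 CpG dinucleotides in its window, more than 91.4% of the 32851 promoters of the table, and Klf4 had 32, more than 95.4%. The median promoter had 6. Grhl3 had 8 and each of the 2 start sites of Tfap2a had 10. The motifs of 5 families were searched on both strands, none overlapping another in these windows. The AP-2 motif GCCNNNGGC was found in 13.7% of all promoters and among these windows in Klf4, at its 3′ end. The Kruppel-like motif CCACCC was found in 28.1% of promoters and at 2 places in the Grhl3 window. The Sox motif CTTTGT was found in 16.5% of promoters and in the Sox2 window. The Pitx motif TAATCC, present in 6.25% of promoters, and the Grainyhead-like motif AACCGGTT, present in 0.116%, were not in any of the windows of these 4 genes. A match of letters does not show binding, and no binding was measured.

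The study asked how lines from different animals differ. Between the AOC3 and AOC11 lines, 3 of the 9 factors tested were past 2-fold and higher in the AOC3 lines (Pitx1, Klf4 and Trp63) and 1 was past 2-fold and higher in the AOC11 lines (Tfap2c). Among all 14165 genes, 11.1% were past 2-fold, made up of 5.1% with the higher level in the AOC3 lines and 6% with the higher level in the AOC11 lines. The median absolute difference was 0.86 for the factors and 0.33 for all genes, and the median signed difference was 0.16 against 0.01. Trp63 and Pitx1 passed the filter only through the AOC3 lines, Tfap2c only through the AOC11 lines and Grhl3 only through AOC11-LN. The 10 genes were also chosen with earlier results known, so nothing particular to them is read from these counts and medians. The groups did not overlap for 6 of the 9, with Trp63, Klf4, Klf5 and Pitx1 higher in the AOC3 lines and Grhl3 and Tfap2c higher in the AOC11 lines. Such a separation was seen in 53.1% of all genes, so that count is near the background.

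A model was fitted with limma across all kept genes in which the primary and the lymph node line of each mouse stood in as replicates. The fit called 0.205% of genes at an adjusted p under 0.05, and Pitx1 was the only factor among them. The log2 difference of Pitx1 was 4.01 with an SE of 0.24 (limma adjusted p = 0.0223). It was 4.13 between the primary lines and 3.88 between the lymph node lines. The call needed all 4 libraries, since the limma adjusted p was 0.272 without AOC3, 0.359 without AOC3-LN, 0.205 without AOC11 and 0.195 without AOC11-LN, and it was 0.217 without the filter on low values. The difference itself stayed between 3.88 and 4.13 when a line was left out. With a pseudocount of 0.1 FPKM in place of 1 it was 6.51, since the AOC11 values are near 0.

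Tfap2c was lower in the AOC3 lines by a log2 difference of -2.61 with an SE of 0.39, which did not pass the threshold (limma adjusted p = 0.0942). Among protein-coding genes alone the limma adjusted p was 0.0373. The limma adjusted p was 0.171 with a filter of 5 FPKM, 0.287 without the filter on low values and 0.119 with the site as a block. With a pseudocount of 0.1 the difference was -5.06. The primary lines gave -3.09 and the lymph node lines -2.14. Trp63 differed by 1.12 with an SE of 0.34 (limma adjusted p = 0.202), and by 2.38 with the smaller pseudocount. The Trp63 difference fell inside 2-fold without AOC3-LN (0.95) and without AOC11 (0.83), and was 1.30 without AOC3 and 1.42 without AOC11-LN. Klf4 differed by 1.13 with an SE of 0.41 (limma adjusted p = 0.249), of which the primary lines gave 0.56 and the lymph node lines 1.70, and without AOC3-LN the value was 0.57. Klf5 differed by 0.86 with an SE of 0.24 (limma adjusted p = 0.185). At an unadjusted p under 0.05 limma listed 5 of the 9, which are Pitx1, Tfap2c, Klf5, Trp63 and Klf4, and 2643 of all 14165 genes. Pitx1, Trp63 and Tfap2c passed the filter only through the lines where they are high, and the genes were chosen with results known. Nothing particular to the factors is therefore read from this count.

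The other 4 factors had intervals that include 0. Grhl2 differed by 0.13, with a 95% interval from -0.33 to 0.59, which lies inside 2-fold. Tfap2a differed by 0.16, with an interval from -0.49 to 0.82 that lies inside 2-fold as well. Both intervals take the lines of 1 mouse as replicates, so they describe these lines and do not exclude a 2-fold difference between other mice. The sign of the Tfap2a difference was not fixed, being -0.09 without AOC3-LN. Grhl3 differed by -0.70 (interval from -1.53 to 0.13), and by -1.71 with a pseudocount of 0.1. Ovol1 differed by -0.30 (interval from -1.32 to 0.72), the mean of opposite orders, with -0.98 between the primary lines and 0.39 between the lymph node lines. The limma adjusted p of these 4 was 0.714, 0.749, 0.330 and 0.708 in the order Grhl2, Tfap2a, Grhl3 and Ovol1.

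**Figure D2:**
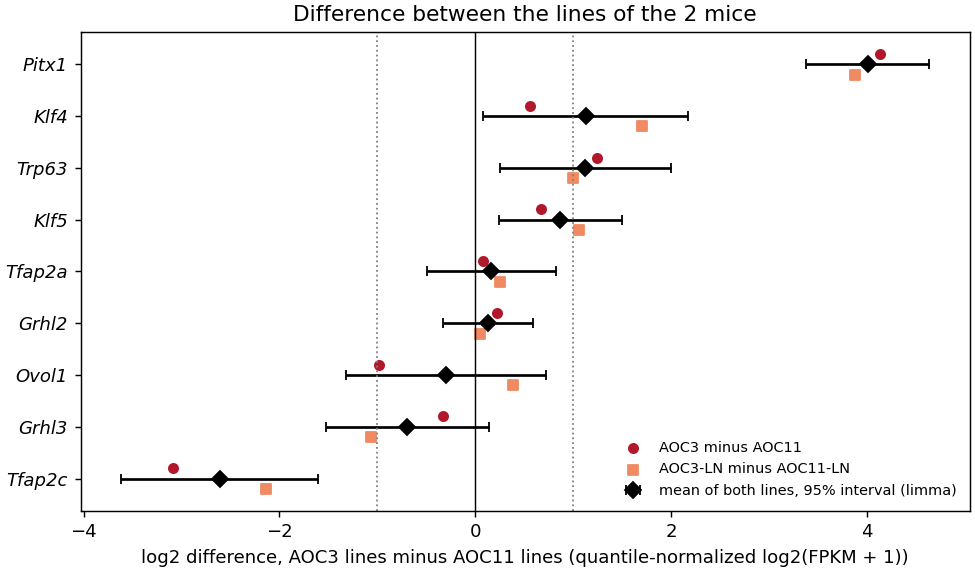
AOC3 lines minus AOC11 lines on the log2 scale for the 9 factors past the filter, on quantile-normalized log2(FPKM + 1) values. Diamonds compare the mean of the pair of lines of each mouse, with the 95% interval from limma, circles the primary lines alone, squares the lymph node lines alone, and dotted lines mark 2-fold. Pitx1 lies at 4.01 and Tfap2c at -2.61, while Grhl2 and Tfap2a lie near 0.

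Lymph node and primary lines were compared within each mouse, with 1 library on each side and so without a replicate check. In mouse 3, 1 of the 9 factors was past 2-fold, Klf4, which was higher in AOC3-LN by 1.12. Among all genes, 2.11% were higher and 3.42% lower in AOC3-LN past 2-fold. In mouse 11, none of the 9 was past 2-fold, and the largest difference was that of Tfap2c, -0.95. Among all genes, 4.97% were higher and 3.14% lower in AOC11-LN.

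On quantile-normalized values the direction was shared by both mice for 3 of the 9, and without that step or with the lines scaled to the same median for 5 of the 9. The share of all genes with a shared direction was not computed, so nothing particular to the factors is read from these counts. Trp63 was higher in the lymph node line by 0.35 in mouse 3 and by 0.59 in mouse 11, Tfap2a by 0.50 and 0.33, and Klf5 was lower, at -0.17 and -0.55. None of these 3 was past 2-fold in either mouse on this scale. Klf4, at 1.12 and -0.03, and Tfap2c, at 0.00 and -0.95, are the 2 whose sign in 1 mouse turned with the scaling. Without quantile normalization Klf4 was at 0.05 in mouse 11 and Tfap2c at -0.01 in mouse 3, so their smaller difference has no settled direction. The remaining 4 went in opposite directions under each of these 3 scalings, by little for Grhl2 (-0.11 and 0.06) and Pitx1 (-0.01 and 0.24). Ovol1 was at 0.61 in mouse 3 and at -0.76 in mouse 11, and Grhl3 at -0.22 and 0.52. limma with the mouse as a block called 0 of the 9, with an adjusted p of 0.999 for each of them and 0 at an unadjusted p under 0.05, and called 0.0141% of all genes. With a pseudocount of 0.1, 4 of the 9 were past 2-fold between AOC11-LN and AOC11 in place of none. At that setting 2074 of all 14165 genes were past 2-fold. Trp63 was then at 1.91 and Pitx1 at 1.40, both higher in AOC11-LN, and Tfap2c at -1.10 and Ovol1 at -1.08, both lower. In AOC11 and AOC11-LN, Trp63 rested on about 14.9 and 140 fragments and Pitx1 on about 1 and 19.

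**Figure D3:**
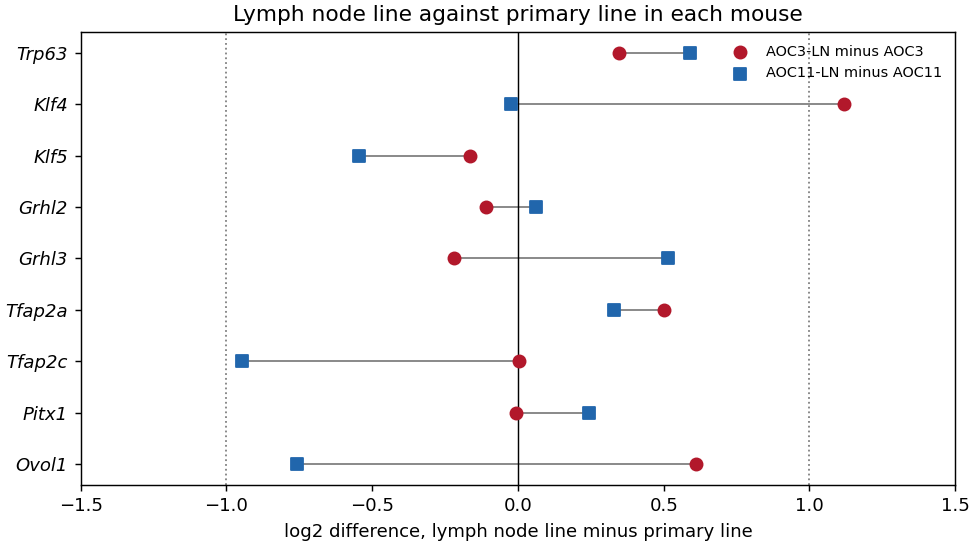
The log2 difference of the lymph node line from the primary line for the 9 factors past the filter, in mouse 3 (circles) and mouse 11 (squares), each from 1 library per line with no error bar. A grey line joins both mice and dotted lines mark 2-fold. Klf4 in mouse 3, at 1.12, is past 2-fold and no other point is.

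The families of the 10 factors were looked at for paralogs that were present where a member was low. Of 29 paralogs, 17 passed the filter, 2 were past 2-fold and higher in the AOC3 lines, and 3 were past 2-fold and higher in the AOC11 lines, with a median log2 difference of -0.03 that ranged from -0.165 to 0.162 when a line was left out. The share past 2-fold was 29.4%, beside 11.1% of all genes, and limma called none of the 17. The genes of this list and of the next ones were chosen with results known, so nothing particular to them is read from such shares. Klf2, a factor known best from endothelium, was at 5.60, 14.6, 0.515 and 0.419 FPKM in AOC3, AOC3-LN, AOC11 and AOC11-LN, a difference of 2.81 (limma adjusted p = 0.105). Klf7 differed by 1.30 (limma adjusted p = 0.124). Grhl1, at 0.184, 0.629, 2.51 and 1.89 FPKM, and Klf8, at 0.00699, 0.0332, 1.43 and 1.44 FPKM, were higher in the AOC11 lines, and both were named after their values were seen. Neither limma difference passed the threshold for Grhl1 (adjusted p = 0.208) or Klf8 (adjusted p = 0.15).

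Other paralogs filled the picture for the low factors. Sox15, a Sox gene of skin and muscle precursors, was at 16.9 FPKM in AOC3 and 23.7 in AOC3-LN, against 16.4 in AOC11 and 30.7 in AOC11-LN, where Sox2 was near 0. Sox3 was listed at 0 in 3 lines and at 0.0162 FPKM in AOC11-LN. Trp53 was at 103.8, 110.4, 76.5 and 82.1 FPKM, and Trp73, the remaining p53 relative, was listed at 0 in all 4 lines. Tfap2b and Tfap2e did not exceed 0.0215 FPKM. Ovol2, which restrains mesenchymal genes in epithelia, was at 3.30, 4.24, 5.34 and 6.13 FPKM, above Ovol1 in every line.

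**Figure D4:**
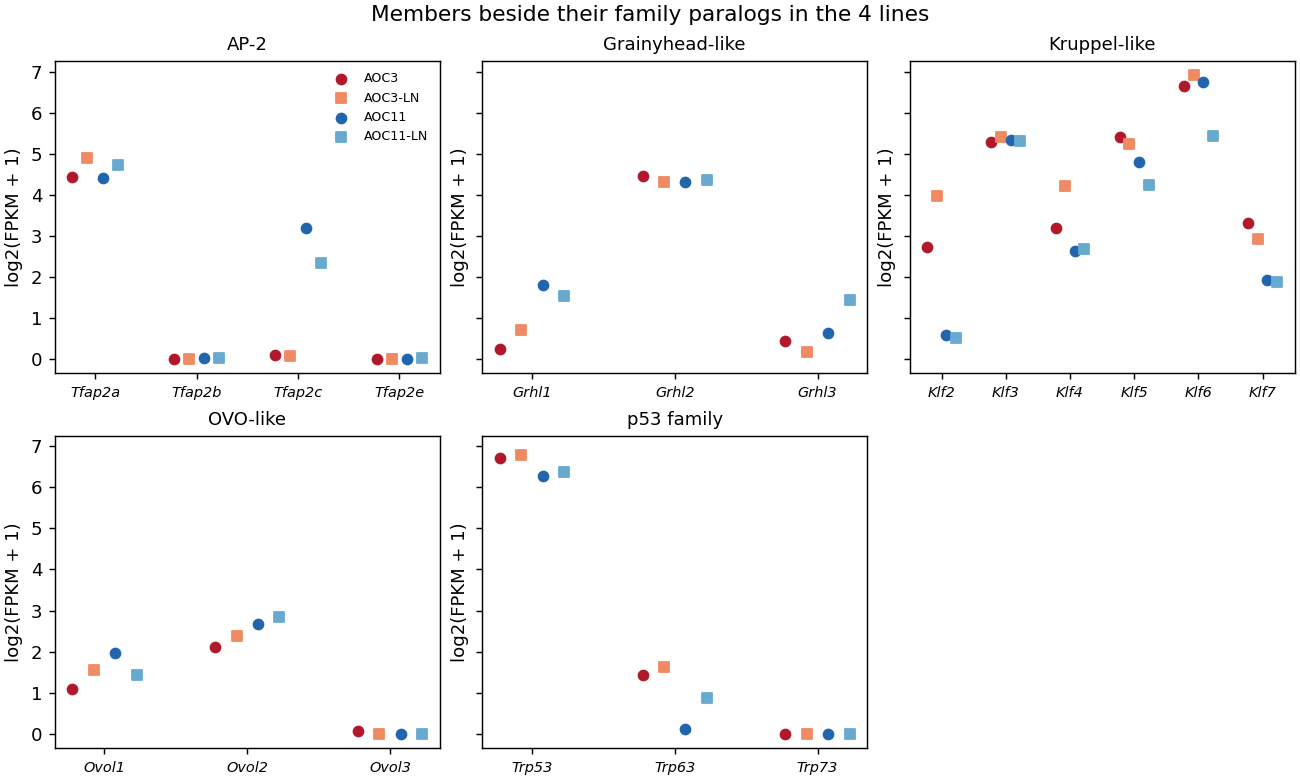
The factors, except Sox2 and Pitx1, beside paralogs of their families in the 4 lines, on a log2(FPKM + 1) axis before quantile normalization, each point being 1 library. The Grhl2 points lie close together, the Tfap2c points of the AOC11 lines lie above those of the AOC3 lines, and Trp73, Tfap2b and Tfap2e lie at or near 0.

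Among 27 other epithelial transcription factors, 16 passed the filter, 1 was past 2-fold and higher in the AOC3 lines, and 4 were past 2-fold and higher in the AOC11 lines (31.2%, beside 11.1% of all genes). The median was 0.08, with values from -0.28 without AOC11 to 0.18 without AOC11-LN. Msx2, a homeobox factor of oral and skin appendages, was the 1 that limma called. It was at 0.750 FPKM in AOC3 and 0.559 in AOC3-LN, against 16.5 in AOC11 and 20.2 in AOC11-LN, a difference of -3.49 (limma adjusted p = 0.0275). Zfp750, which p63 switches on in differentiating keratinocytes, did not exceed 0.0193 FPKM.

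Genes that p63 is known to act on were compared in the same way. Of 20, 16 passed the filter, 3 were past 2-fold and higher in the AOC3 lines and 1 higher in the AOC11 lines (25.0%, beside 11.1% of all genes). The median was 0.48 beside 0.01 for all genes, and it was 0.21 over all 20 genes without the filter on low values. limma called none of them. Krt5, the basal keratin, was at 498.9 FPKM in AOC3 and 274.7 in AOC3-LN, against 4.99 in AOC11 and 17.0 in AOC11-LN, a difference of 5.19 (limma adjusted p = 0.0685). Tns4, a focal adhesion protein, differed by 2.84 (limma adjusted p = 0.0880), and Itga6, a hemidesmosome integrin of basal cells, by 1.54 (limma adjusted p = 0.0943). Krt14, the usual partner of Krt5, went the other way, at 166.1, 150.3, 257.4 and 258.9 FPKM, a difference of -0.69 (limma adjusted p = 0.147), and was named after its values were seen.

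All 12 genes on the list of Grainyhead-like targets passed the filter, and 2 of them were past 2-fold (16.7%, beside 11.1% of all genes), with a median of -0.03. Cdh1 was at 144.0 to 182.6 FPKM and Esrp1, an epithelial splicing factor, at 53.5 to 56.9. Cldn3, a tight junction claudin, was at 196.5 FPKM in AOC3 and 242.0 in AOC3-LN, against 0.0550 in AOC11 and 185.5 in AOC11-LN, so that AOC11 alone was low. Tgm1, a cross-linking enzyme of the cornified envelope, was higher in the AOC11 lines by a log2 difference of -2.48 (limma adjusted p = 0.110). Prom2 differed by 0.91, which is inside 2-fold.

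Of 25 squamous differentiation genes, 13 stayed under 1 FPKM in every line, a share of 52.0% beside 59.2% of all entries in the table. They include Krt1, Krt4, Krt13 and Flg, a set that holds keratins of differentiating epidermis (Krt1) and of the oral and esophageal lining (Krt4 and Krt13). Of the 12 that passed, 3 were past 2-fold and higher in the AOC3 lines (Krt6a, Sprr1a and Sprr1b) and 2 higher in the AOC11 lines (Tgm1 and Cnfn), a share of 41.7% beside 11.1% of all genes, and limma called none. The median of 0.20 rested on AOC3-LN for its sign, being -0.04 without that line and 0.46 without AOC3. Krt6a, a keratin of wounded and hyperproliferative epithelium, was at 22.9, 81.2, 1.16 and 1.40 FPKM, a difference of 4.32 (limma adjusted p = 0.0848). Sprr1a, a cornified envelope precursor, was at 55.6, 25.4, 5.33 and 2.43 FPKM, a difference of 3.18 (limma adjusted p = 0.0965).

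Of 13 genes of simple and glandular epithelium, 7 passed the filter, 1 was past 2-fold and higher in the AOC3 lines and 2 were past 2-fold and higher in the AOC11 lines, with a median of 0.11, and limma called 2. The share past 2-fold was 42.9%, beside 11.1% of all genes, and the median was -0.045 without quantile normalization, -0.015 without AOC11-LN, 0.02 without AOC3-LN and 0.34 without AOC3. Krt7, a keratin of ducts, was at 13.1, 5.91, 634.8 and 305.8 FPKM in AOC3, AOC3-LN, AOC11 and AOC11-LN (difference -5.39, limma adjusted p = 0.0421). Krt19 was at 3.65, 50.1, 111.1 and 63.3 FPKM (difference -2.46, limma adjusted p = 0.334). The simple keratins Krt8 and Krt18 were at 815 to 1322 FPKM in all lines, above Krt14, and these were named after their values were seen. Of 9 transcription factors of epithelial to mesenchymal transition, 5 passed, with a median of 0.80 that was 0.02 without AOC11 and 1.29 without AOC11-LN. Among them 1 was past 2-fold (20%, beside 11.1% of all genes), Prrx1, at 9.69, 18.3, 0.0593 and 0.569 FPKM (difference 3.55, limma adjusted p = 0.0653). Zeb2 differed by 0.91 and Twist1 by 0.80, both inside 2-fold.

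Within the mice, 5.53% of all genes were past 2-fold between AOC3-LN and AOC3 and 8.11% between AOC11-LN and AOC11. The share of p63 target genes was 12.5% and 31.2%, that of Grainyhead-like targets 25.0% and 16.7%, and that of squamous differentiation genes 25.0% and 16.7%, from 12 to 16 genes each. The genes below were named after their values were seen. Of the 16 p63 target genes, 1 was higher in AOC3-LN (Col17a1, 1.48) and 1 lower (Dlx3, -1.79), while 3 were higher in AOC11-LN (Krt5, 1.57, Dlx3, 1.33, and Tns4, 1.16) and 2 lower (Cldn1, -1.40, and Lama3, -1.26). Of the 12 Grainyhead-like targets, 1 was higher in AOC3-LN (Prom2, 1.23) and 2 lower (Cdh3, -1.12, and Arhgef19, -1.10), and 2 were higher in AOC11-LN (Cldn3, 7.43, and Arhgef19, 1.38). Of the 12 squamous differentiation genes, 1 was higher in AOC3-LN (Krt6a, 1.76) and 2 lower (Sprr1b, -1.66, and Sprr1a, -1.09), and 2 were lower in AOC11-LN (Cnfn, -2.97, and Sprr1a, -1.02). Sprr1a was thus lower in the lymph node line of both mice. Among the 16 other epithelial factors, Gata3 was higher in AOC11-LN by 1.99, and Id1 lower, at -1.24. limma with the mouse as a block called none of these genes.

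**Figure D5:**
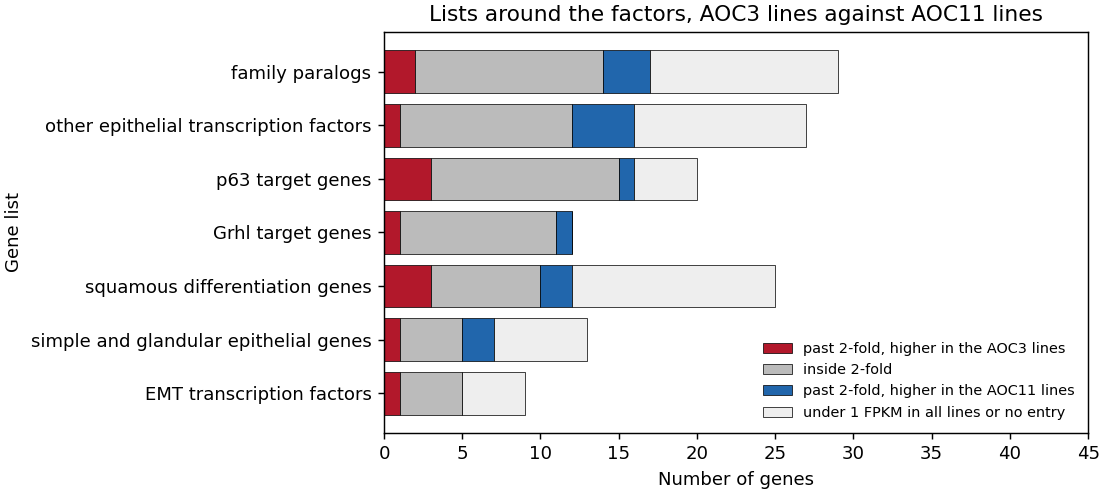
The number of genes in each list that were past 2-fold and higher in the AOC3 lines, inside 2-fold, past 2-fold and higher in the AOC11 lines, or under 1 FPKM in all lines or without an entry. All 12 Grainyhead-like target genes passed the filter with 2 past 2-fold, and of 25 squamous differentiation genes 12 passed with 5 past 2-fold, beside 11.1% of all genes past 2-fold.

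Genes with the most similar pattern over the 4 lines were sought among 8588 protein-coding genes with a mean of at least 5 FPKM, by the Euclidean distance of mean-centered log2 profiles. This was done for Trp63 and for the 2 factors whose values spanned more than 2 log2 units. With 4 lines, many genes are near any profile, so the distances are a description. Among the nearest to Pitx1 were Ngfr, a neurotrophin receptor, at a distance of 0.31, and Nes, an intermediate filament gene, at 0.36. Ngfr was at 109.0, 85.4, 4.63 and 6.91 FPKM. The nearest to Tfap2c were Rflnb at 0.17, Stard5 at 0.36 and Dok2 at 0.39, and Dok2 was at 4.12, 2.41, 30.9 and 15.9 FPKM. The nearest to Trp63 were Endog at 0.13, Glul at 0.15 and Fut8 at 0.21, and Glul, which codes for glutamine synthetase, was at 47.6, 64.8, 23.9 and 31.8 FPKM.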

How the data were processed

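RNA was isolated from 4 cultured lines and sequenced as stranded mRNA libraries with paired reads of 100 bases. Per the submitters' processing notes and the study's methods, the authors trimmed reads with Trim Galore, mapped them to mm10 with TopHat2 and estimated abundance with Cufflinks on GENCODE M21. The deposited values are FPKM, neither log-transformed nor quantile-normalized, so both steps named in the methods were run on FPKM values after adding a pseudocount of 1. Genes reaching 1 FPKM in some line were kept (14165 genes, 11380 protein-coding). limma 3.58.1 in R 4.3.3 (lmFit, eBayes with trend, Benjamini-Hochberg over all kept genes) compared the AOC3 with the AOC11 lines, and the lymph node with the primary lines with the mouse as a block, since both lines of a pair come from the same mouse. For AOC3 against AOC11 lines its p-values weigh a difference against the spread between both lines of a mouse. With the mouse as a block they weigh it against how far the lymph node difference varies between the mice. limma moderates either spread with those of all kept genes, and neither covers other mice. An exact permutation test of 2 against 2 lines could not go below 0.333 and was not used. Differences between single libraries were given no p-value.

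The table has no counts, so depth was estimated from the steps of low values of 9528 genes with 1 transcript. Between 63.6% and 67.2% of low values lay within 0.1 of a whole number of fragments. Fragment numbers per gene are therefore approximate, with intervals not computed. Both the fit and the depth estimate were run on simulated data. The lines simulated for the fit varied independently of each other, so that run does not check the use of both lines of a mouse as replicates. Promoters came from RefSeq (GRCm38.p6), gene positions from GENCODE M21.

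The 10 genes and all lists were chosen with earlier results of these data known. Named genes are the 10 factors, the 3 genes of each list with the largest difference between the AOC3 and AOC11 lines, list genes at or near 0, and the 3 genes nearest in pattern to Trp63, Tfap2c and Pitx1. Others named are marked as chosen after their values were seen, or stand as family members or examples of a level. Sox1, Tfap2d, Foxc2, Klf17, Hnf4a and Snai3 were not analysed here. A few named genes that the rule selects are not reported here. Alternatives were another pseudocount, scaling, filter, gene type and fold, leaving out each line, and the block.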

Additional observations from a re-analysis of the deposited data

Results flagged for a closer look

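Ovol1 and, among the genes of the lists, Krt5, Krt19, Dlx3, Arhgef19 and Sbsn moved in opposite directions between the primary and the lymph node line of the 2 mice, by more than 1.5-fold in each. The log2 difference of Ovol1 was 0.61 in mouse 3 and -0.76 in mouse 11. Without quantile normalization it was 0.46 and -0.53, and with the lines scaled to the same median 0.51 and -0.51, so that Ovol1 then stays inside 1.5-fold. That of Krt5 was -0.89 in mouse 3 and 1.57 in mouse 11, and that of Krt19 was 3.52 in mouse 3 and -0.83 in mouse 11. Dlx3, a homeobox factor of keratinocytes, was at -1.79 and 1.33, Arhgef19 at -1.10 and 1.38, and Sbsn, which differentiating keratinocytes secrete, at 0.68 and -0.98, in mouse 3 and mouse 11. Each value comes from 1 library per line, and the difference between the mice was not tested.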

How the results depend on the processing

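Of the factors' differences, those of Tfap2a, Ovol1, Klf4 and Tfap2c changed sign under an alternative. Klf4 in AOC11-LN against AOC11 was 0.052 without quantile normalization and 0.070 with the lines scaled to the same median, against -0.025, and Tfap2c in AOC3-LN against AOC3 was -0.010 and -0.0054, against 0.0045. The difference of Tfap2a between the AOC3 and AOC11 lines was -0.087 without AOC3-LN and -0.0017 without AOC11, and ranged from -0.087 to 0.414 over the 4 lines left out. That of Ovol1 was 0.0064 without AOC3 and 0.081 without AOC11, with a range from -0.678 to 0.081, and its lymph node difference was 0.0012 with the lines scaled to the same median. The primary lines alone gave 1692 genes past 2-fold and the lymph node lines alone 2304, both chosen after seeing the data. Among all genes, 1573 were past 2-fold between the AOC3 and AOC11 lines, 783 between AOC3-LN and AOC3, and 1149 between AOC11-LN and AOC11. A pseudocount of 0.1 gave 2627, 1443 and 2074, and a fold of 1.5 gave 3814, 1948 and 3482. With protein-coding genes alone the node counts were 473 and 689. Leaving out a line gave 1456 to 1956 between the AOC3 and AOC11 lines. Without quantile normalization, 912 genes were higher and 369 lower in AOC11-LN, against 704 and 445 with it, and the AOC3 lines were the higher for 633 genes and the lower for 951, against 723 and 850.

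limma called 29 genes between the AOC3 and AOC11 lines and 2 between lymph node and primary lines. Without a filter it called 0 and 0 (4247 and 1204 at an unadjusted p under 0.05), and with protein-coding genes 256 and 0 (2457 and 325 unadjusted). A filter of 5 FPKM gave 50 between the AOC3 and AOC11 lines. Leaving out any line gave 0 (from 0 to 0, with 1124 to 2925 at an unadjusted p under 0.05), where the lone line was assumed to vary like the others. The site as a replicate block gave 31 calls and leaving the mouse block out gave 2, and no factor's call changed with either. The cause of these shifts was not tested. Sox2, Grhl3 in the AOC3 lines, Tfap2c in the AOC3 lines, Pitx1 in the AOC11 lines and Trp63 in AOC11 rest on few fragments. This limits any ratio that uses these low values.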
